A study of Homo sapiens with 6 samples.

Results

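The 38 genes described here encode the antioxidant, pentose phosphate and iron-handling machinery of human cells. They were chosen by symbol, and all 38 were found among the 18056 genes of the deposited table. RNA sequencing was carried out on dorsal forebrain organoids, small cultured tissues in which stem-cell-derived neural progenitors and neurons form layered regions, grown from the induced pluripotent stem cell line DYR0100 (genotype WT in the labels). In 3 libraries the organoids had received vehicle, and in 3 they had received 5 µM Aβ42, the aggregation-prone amyloid-β peptide, for 6 days. All libraries came from 1 line and 1 batch. The age of the organoids is not given in the sources used here, nor is the number of organoids per library. Replicates are described as independent, without saying whether they were separate differentiations, so p-values measure only the spread between these libraries.

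Cells meet oxidants mainly through a transcription factor and its sensor. NRF2 (encoded by NFE2L2) is held at a low level by KEAP1 and, when released, binds antioxidant response elements and raises genes for glutathione synthesis, thioredoxin reduction, quinone detoxification and NADPH supply. Iron is handled mostly after transcription: iron regulatory proteins bind hairpins called iron-responsive elements, which restrains translation when the hairpin lies in the 5′ untranslated region of ferritin mRNA and protects the message when hairpins lie in the 3′ untranslated region of the transferrin receptor mRNA. Ferroptosis is an iron-dependent form of cell death driven by lipid peroxides, which GPX4 removes.

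The hairpins are shown because FTH1, FTL and TFRC, 3 of the 7 members whose groups did not overlap, carry them. Groups did not overlap for 18.4% of the members and for 27.0% of all genes. SLC40A1, which also carries a hairpin, had overlapping groups. A part of the hairpins in the mRNA levels was not tested. The GENCODE 29 transcripts (GRCh38) of all 38 members were searched for a bulged C, 5 bases, the loop CAGTGN and 5 bases that pair with the first 5, with G-T pairs allowed. A match was present in 4 of the 38 members and in 1.61% of 17436 genes searched. Capitals mark the loop, and T stands for U.
FTH1 5′ untranslated region, chr11:61967574-61967602, minus strand: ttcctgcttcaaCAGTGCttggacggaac
FTL 5′ untranslated region, chr19:48965335-48965363, plus strand: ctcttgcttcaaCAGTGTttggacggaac
SLC40A1 5′ untranslated region, chr2:189580661-189580689, minus strand: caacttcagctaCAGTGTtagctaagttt
TFRC 3′ untranslated region, chr3:196050979-196051007, minus strand: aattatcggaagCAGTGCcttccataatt
TFRC 3′ untranslated region, chr3:196050575-196050603, minus strand: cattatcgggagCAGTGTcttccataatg
TFRC 3′ untranslated region, chr3:196050510-196050538, minus strand: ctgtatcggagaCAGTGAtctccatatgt
TFRC 3′ untranslated region, chr3:196050463-196050491, minus strand: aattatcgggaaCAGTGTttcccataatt
A match in a 5′ untranslated region was present in 0.195% of the genes searched and in 3 members. A match is a description of the letters, and the binding of regulatory proteins was not measured.

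Most of the 38 genes stood at nearly the same level in both groups, and none passed the test without a block. The ferritin chains FTL and FTH1 and the pentose phosphate enzyme TKT had higher values in every Aβ42 library, and GCLM, a subunit of the enzyme that starts glutathione synthesis, had lower ones. These 4 and the quinone reductase NQO1, whose groups overlapped, passed with the replicate number as a block, a share of the members close to that of all genes. All 38 genes passed the filter on low counts. In edgeR's quasi-likelihood test with Benjamini-Hochberg adjustment over 13842 genes, 0 members passed an adjusted p of 0.05, as did 0.0% of all genes. At an unadjusted p under 0.05 there were 7 members (5 higher, 2 lower), or 18.4%, against 23.9% of all genes tested (12.4% higher, 11.5% lower). The DESeq2 Wald test passed 3 members (FTL, TKT and FTH1), or 7.89%, against 5.81% of all genes.

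With the replicate number as a block, so that libraries of the same number are compared with each other, 5 members passed, or 13.2%, against 14.2% of all genes. FTL, FTH1 and TKT rose (7.12% of all genes did), and GCLM and NQO1 fell (7.05%). With no filter on low counts 2 members passed, or 5.26% against 2.07% of all genes. With quality weights 7 passed (18.4% against 17.8%), and with the block and an offset for gene length also 7 (18.4% against 14.6%). Without Aβ42 replicate 2 there were 7 (18.4% against 23.1%), and without both libraries numbered 2 there were 8 (21.1% against 16.7%). The groups did not overlap for 7 members (5 higher, 2 lower), or 18.4%, against 27.0% of all genes (13.6% higher, 13.4% lower). The share among the members thus lay below that among all genes in some of these counts and above it in others. The median log2 fold change (Aβ42 over vehicle) was -0.023 over the members and 0.0032 over all genes, 13 members lying above and 25 below 0. In 25 of the 38 the fold change was smaller than 0.1 on the log2 scale.

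**Figure D1:**
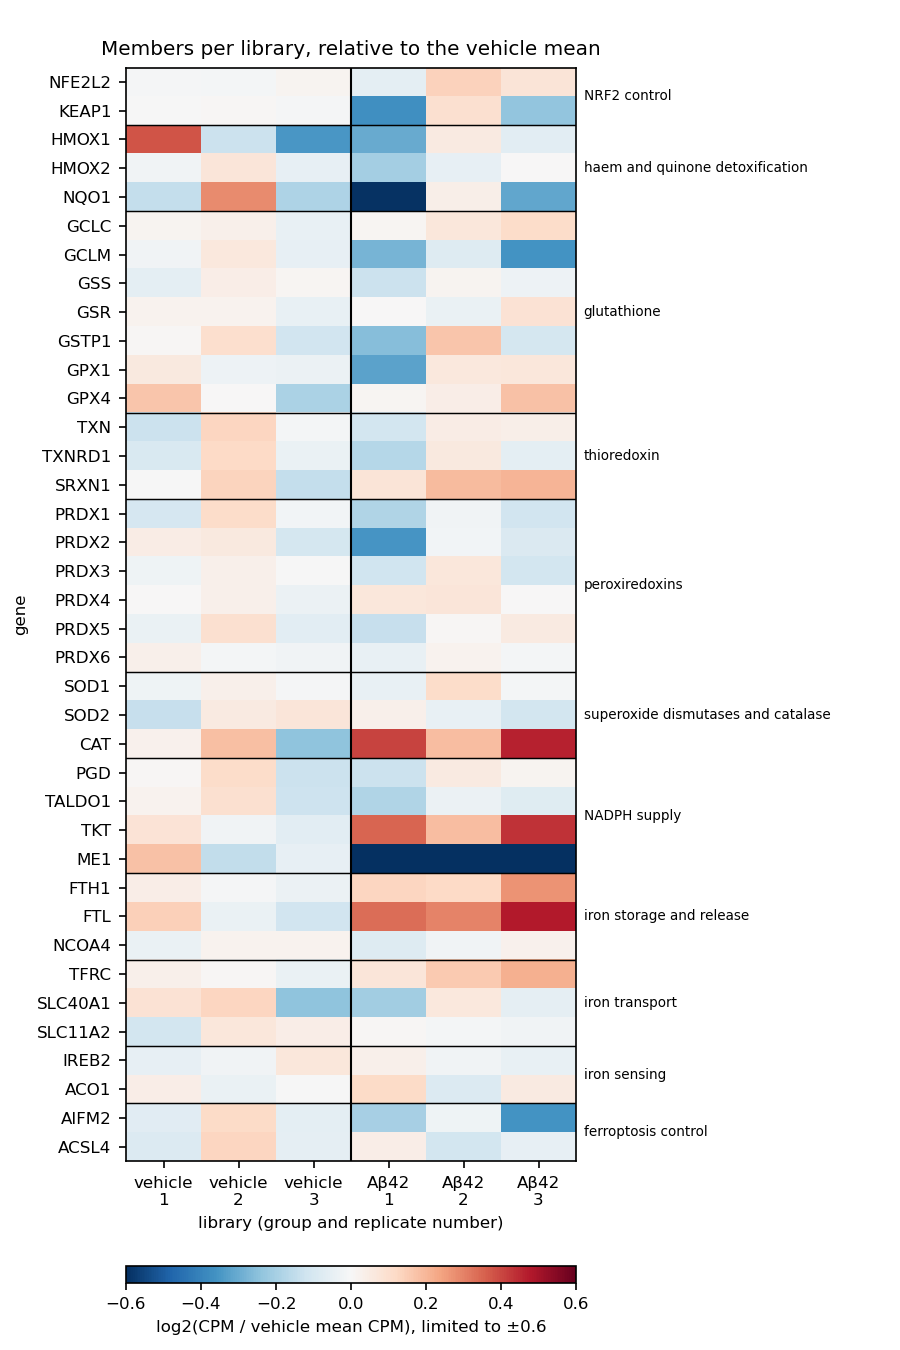
Each row is 1 of the 38 genes, grouped by role, and each column 1 library; colour gives log2 of the TMM-normalised CPM over the vehicle mean, limited to ±0.6, so ME1 exceeds the scale. FTL, FTH1 and TKT are above the vehicle mean in all 3 Aβ42 libraries, and most other rows are pale.

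**Figure D2:**
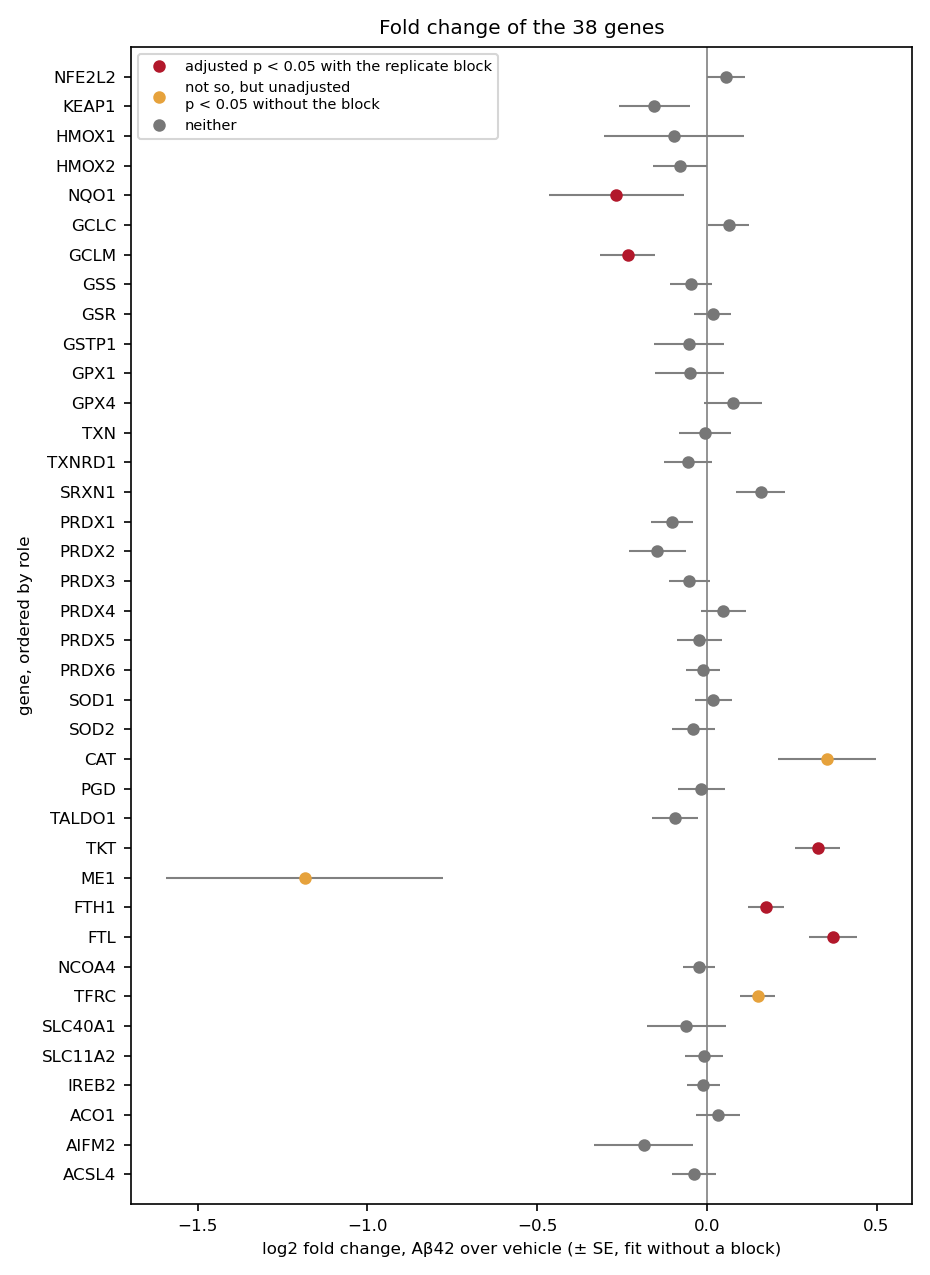
Points give the log2 fold change of each gene in the fit without a block, bars its standard error, and colours the genes that passed with the replicate block (5), those that did not but had an unadjusted p under 0.05 without it (3) and the rest (30). ME1, at -1.18, has the widest error, and most points lie close to 0.

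Values below are CPM (counts scaled to a common library total, with TMM factors for single genes), unless given as TPM, which also divides by gene length. Totals of 16465390 to 16742958 estimated counts per library gave similar depth in both groups. Aβ42 replicate 2 correlated more highly across genes with the vehicle libraries (mean r = 0.9931) than with the other Aβ42 libraries (0.9898). Proliferation markers (10 of 10 tested) summed to 842.5 to 1001 CPM in vehicle and to 550.9 to 779.6 CPM with Aβ42. At an unadjusted p under 0.05, 9 of them were lower and 0 higher, against 11.5% of all genes lower and 12.4% higher. For the 6 intermediate progenitor markers the range was 190.0 to 212.6 CPM in the vehicle libraries and 127.3 to 154.5 CPM in the Aβ42 ones. The 11 neuron markers were at 7206 to 7627 and 6803 to 7045 CPM. The 9 radial glia markers were at 5225 to 5377 and 5118 to 5450 CPM, a sum over genes that went in both directions. At the same threshold 3 radial glia markers were lower and 1 higher. Of the neuron markers 4 were lower and 1 higher, and of the intermediate progenitor markers 5 were lower and 0 higher. Astrocyte markers (6) summed to 86.8 to 116.9 and 54.9 to 94.9 CPM, oligodendrocyte lineage markers (7) to 5.41 to 7.39 and 4.74 to 5.79 CPM, and endothelial and mesenchymal markers (9) to 43.7 to 82.5 and 34.3 to 47.2 CPM. Microglial genes were near the limit of detection (2.94 to 3.71 CPM over 11 genes), with C1QA, C1QB, C1QC and TYROBP at 0 in every library. Red blood cell genes summed to at most 0.3 CPM over 5 listed genes, with HBA1, HBA2 and HBG1 at 0. A count of 0 allows up to 3 counts, or 0.179 to 0.182 CPM, and covers counting error only. In bulk RNA, fewer cells of a type and less RNA per cell cannot be told apart, and the part of these shifts in the results below was not tested.

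Ferritin stores iron in a shell built from a heavy chain, which oxidises iron, and a light chain, which helps it mineralise. Per length, the heavy chain FTH1 (Entrez gene ID 2495, chromosome 11: 61964285-61967634, GRCh38.p14) and the light chain FTL (2512, chromosome 19: 48965309-48966879) were the most abundant members, at 3667 ± 62.7 and 3263 ± 262.9 TPM in vehicle (mean ± SD, n = 3). The next member, PRDX1, was at 861.6 ± 72.0 TPM.

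FTL stood at 800.1, 703.9 and 669.5 CPM in vehicle replicates 1 to 3 and at 915.4, 889.5 and 1006.5 CPM in Aβ42 replicates 1 to 3. Every Aβ42 library was above every vehicle library. The log2 fold change was 0.37 ± 0.07 (SE), or 1.29-fold, with an adjusted p of 0.0684 without the block and 0.00254 with it. FTL passed in 7 of 20 alternatives, and its adjusted p ran from 0.000101 by DESeq2 to 0.296.

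FTH1 stood at 1355, 1313 and 1287.5 CPM in the vehicle libraries and at 1444, 1433 and 1589 CPM in the Aβ42 ones, again without overlap. Its log2 fold change was smaller, 0.18 ± 0.05 (adjusted p 0.0993, and 0.0352 with the block). Both chains are short messages, at 0.187 (FTL) and 0.301 (FTH1) of the median gene's length. With an offset for the trend of counts with gene length, the log2 fold changes were 0.33 for FTL and 0.13 for FTH1. With the block and that offset FTL passed (adjusted p 0.00158) and FTH1 did not (0.0588). The estimated counts of FTH1 were not whole. Both ferritin genes have many near-identical pseudogene copies that can take reads from them, so their levels are uncertain.

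The ratio of light to heavy chain mRNA, in TPM, took the values 0.956, 0.867 and 0.845 under vehicle, then 1.017, 0.999 and 1.019 under Aβ42. The means were 0.889 ± 0.058 and 1.012 ± 0.011 (SD, n = 3), and the groups did not overlap. The exact permutation p was 0.1 (two-sided), the smallest that 3 libraries against 3 allow. NCOA4, the receptor that carries ferritin to the lysosome for iron release, was at 203.5 to 212.7 CPM in the vehicle libraries and 198.9 to 213.1 CPM in the Aβ42 ones (log2 fold change -0.02 ± 0.05).

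**Figure D3:**
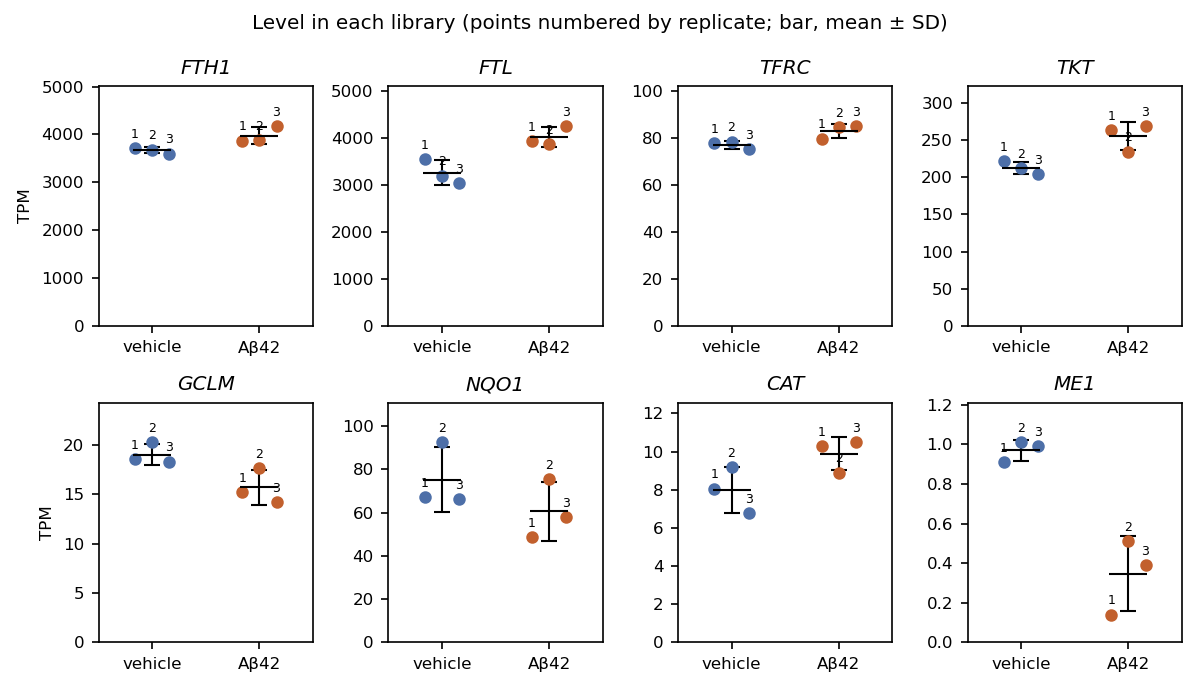
Each panel gives the TPM of 1 gene in the 6 libraries, points numbered by replicate, with the group mean and SD; axes start at 0 and differ between panels. FTH1, FTL, TFRC, TKT, GCLM and ME1 do not overlap between groups, whereas NQO1 does, and CAT does so on this scale through Aβ42 replicate 2 (8.89 TPM) and vehicle replicate 2 (9.18 TPM).

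Iron enters cells through the transferrin receptor TFRC and the transporter SLC11A2 and leaves through the exporter SLC40A1. TFRC (7037) stood at 151.4, 149.0 and 144.3 CPM in the vehicle libraries and at 156.0, 165.4 and 171.7 CPM in the Aβ42 ones. All 3 Aβ42 libraries were higher, by a small margin in replicate 1. The log2 fold change was 0.15 ± 0.05, with an adjusted p of 0.121, or 0.076 with the block, so TFRC did not pass in either fit. It passed with quality weights and with the block and length offset (0.0476). SLC11A2 was at 77.5 to 87.6 and 82.4 to 84.1 CPM (-0.01 ± 0.06), and SLC40A1, whose 5′ untranslated region carries a matching hairpin, at 14.1 to 18.3 and 14.5 to 17.5 CPM (-0.06 ± 0.12). The iron regulatory proteins themselves, ACO1 and IREB2, had log2 fold changes of 0.03 ± 0.06 and -0.01 ± 0.05, both with overlapping groups.

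Beyond the 38, a list of 22 further genes of iron transport and storage had 18 with enough counts to test. At an unadjusted p under 0.05, 8 of the 18 were higher and 0 lower, or 44.4%, against 23.9% of all genes (12.4% higher), which is also the share to set beside the lists below. With the block 4 passed, all higher, against 14.2% of all genes (7.12% higher). The median log2 fold change of the list was 0.14. The count of higher genes was 4 by DESeq2 and 5 to 8 in the other fits, and that of lower genes 0 or 1. Without vehicle replicate 3 the median was 0.02. The alternative fits tested 18 to 20 genes of the list. The share of all genes at an unadjusted p under 0.05 was not counted in them. SLC25A37, the mitochondrial iron importer mitoferrin-1, was at 30.1 ± 1.95 CPM in the vehicle libraries and 38.7 ± 2.74 CPM in the Aβ42 ones (log2 fold change 0.37 ± 0.08, adjusted p 0.0691, with the block 0.004). FBXL5, the iron-sensing part of the ligase that removes the iron regulatory protein IREB2, was at 133.1 ± 2.69 and 152.1 ± 5.67 CPM (0.19 ± 0.05, 0.0734, with the block 0.0202). HAMP, the hormone hepcidin that closes the exporter, had 0 counts in every library.

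Genes of iron-sulphur cluster and haem synthesis (23 tested) showed 4 higher and 0 lower at an unadjusted p under 0.05, 17.4% in all, with a median of 0.08. HSPA9, the mitochondrial chaperone that passes on new clusters, was at 317.7 ± 13.9 and 366.2 ± 8.42 CPM (0.20 ± 0.05, adjusted p 0.0734, with the block 0.0095). MMS19, a factor of cytosolic cluster delivery, had a log2 fold change of 0.22 ± 0.07 (0.115, with the block 0.0245).

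**Figure D4:**
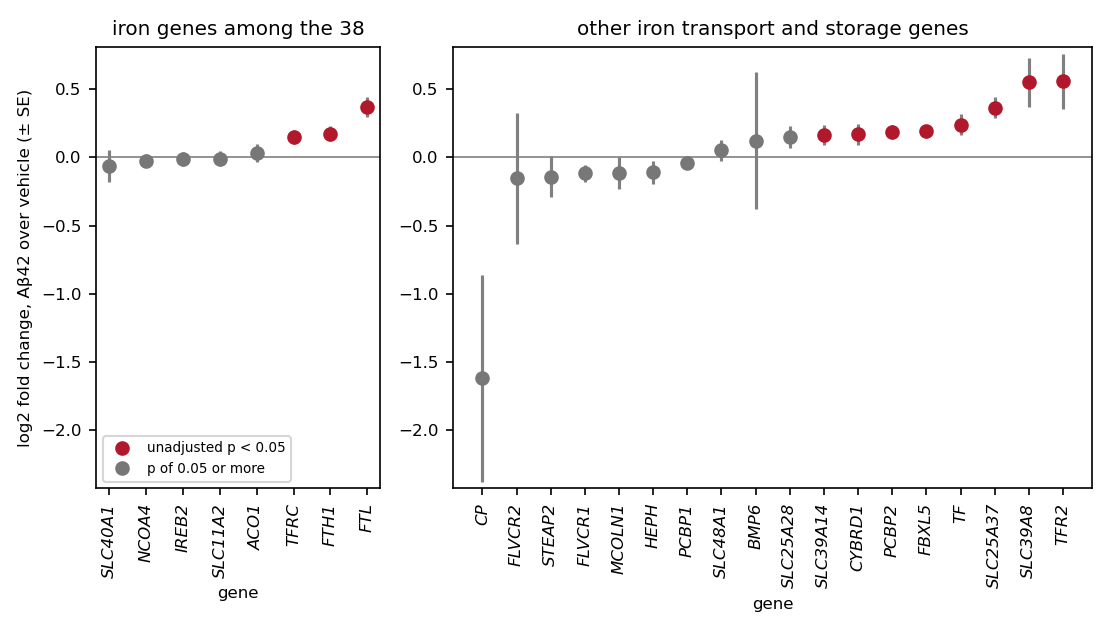
Log2 fold changes (± SE) of the 8 iron genes among the 38 (left) and of the 18 tested genes of the further iron list (right), on 1 scale, with an unadjusted p under 0.05 in red. On the left FTL, FTH1 and TFRC are red and positive, and on the right 8 of 18 are, while CP, at -1.62 ± 0.76, has the widest error.

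NADPH, which reduces glutathione and thioredoxin, is supplied here by PGD in the oxidative arm of the pentose phosphate pathway, by TKT and TALDO1 in its non-oxidative arm and by malic enzyme ME1. TKT (7086, chromosome 3: 53224712-53256022), the transketolase that links pentoses to glycolysis, stood at 202.7, 188.4 and 182.8 CPM in the vehicle libraries and at 243.5, 217.8 and 258.8 CPM in the Aβ42 ones. The groups did not overlap, with Aβ42 replicate 2 nearest to vehicle. The log2 fold change was 0.33 ± 0.07, or 1.25-fold, with an adjusted p of 0.0684 without and 0.00189 with the block. TKT passed in 7 of 20 alternatives (adjusted p 0.000522 to 0.296). A list of 14 hypoxia and glycolysis genes, all tested, summed to 777.4 to 1309 CPM in vehicle and to 1327 to 1593 CPM with Aβ42. At an unadjusted p under 0.05, 3 were higher and 0 lower, 21.4% in all. All 14 had a positive log2 fold change, with a median of 0.51. With the block 5 passed, all higher, against 14.2% of all genes (7.12% higher). The part of this list in the value of TKT was not tested.

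The other pentose phosphate members had overlapping groups. PGD was at 231.7 to 274.0 CPM in the vehicle libraries and 232.3 to 263.3 CPM in the Aβ42 ones (log2 fold change -0.02 ± 0.07), and TALDO1 at 58.7 to 68.5 and 56.5 to 62.6 CPM (-0.09 ± 0.07, adjusted p 0.42). ME1 (4199) was scarce, with 19, 15 and 16 counts in vehicle and 3, 11 and 8 counts with Aβ42. All 3 Aβ42 libraries were lower, the log2 fold change was -1.18 ± 0.41 and the adjusted p was 0.126 (0.0653 with the block). Counting error alone is large at such depth.

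Among 21 further genes of the pathway and of NADPH supply, 3 were higher and 3 lower at an unadjusted p under 0.05, 28.6% in all, with a median of -0.02. PRPS1, which turns ribose phosphate into the precursor of nucleotides, was at 55.3 ± 1.78 and 64.1 ± 1.84 CPM (0.21 ± 0.05, adjusted p 0.078, with the block 0.023). DERA (-0.28 ± 0.10), a deoxyribose phosphate aldolase, and MTHFD2 (-0.15 ± 0.06), a mitochondrial folate enzyme, had adjusted p values of 0.134 and 0.147 and passed in neither fit.

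NFE2L2 (4780), the NRF2 message, stood at 94.7, 94.2 and 96.3 CPM in the vehicle libraries and at 91.4, 104.8 and 100.3 CPM in the Aβ42 ones. The groups overlapped through Aβ42 replicate 1, and the log2 fold change was 0.06 ± 0.06, or -0.0081 on the log2(TPM + 1) scale. KEAP1 (9817) was at 39.5, 39.6 and 39.3 CPM in the vehicle libraries and at 30.6, 42.2 and 33.5 CPM in the Aβ42 ones. Vehicle libraries were nearly identical, whereas Aβ42 replicate 2 lay above them and the other 2 below. Its log2 fold change was -0.15 ± 0.10 (adjusted p 0.386, with the block 0.204), while without Aβ42 replicate 2 it was -0.30 (0.00849) and without Aβ42 replicate 1 it was -0.059 (0.785).

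Among the detoxifying enzymes driven by NRF2, the quinone reductase NQO1 (1728) was at 61.1, 82.0 and 59.3 CPM in the vehicle libraries and at 44.7, 69.1 and 54.4 CPM in the Aβ42 ones. Replicate 2 was the highest library in both groups, and Aβ42 replicate 2 exceeded vehicle replicates 1 and 3. Without the block the log2 fold change was -0.27 ± 0.20 (adjusted p 0.45), and with it -0.27 ± 0.07 (0.0122). The value was -0.10 when vehicle replicate 2 was left out, -0.13 when Aβ42 replicate 1 was, and -0.44 when Aβ42 replicate 2 was, and it passed in none of these fits. Choroid plexus markers (6) summed to 997.8 CPM in vehicle replicate 2 and 921.5 CPM in Aβ42 replicate 2. In the other 4 libraries they summed to 398.7 to 506.3 CPM. Proliferation, intermediate progenitor, astrocyte and endothelial and mesenchymal markers were also highest in replicate 2 of both groups. The part of these lists in the level of NQO1 was not tested. HMOX1 (3162), the inducible haem oxygenase that releases iron from haem, was low, at 5.95, 4.195 and 3.60 CPM in the vehicle libraries and 3.72, 4.75 and 4.38 CPM in the Aβ42 ones. Its groups overlapped, and the log2 fold change was -0.10 ± 0.21. Its constitutive relative HMOX2 was at 24.5 to 26.7 and 22.1 to 25.4 CPM (-0.08 ± 0.08).

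Further NRF2 targets (18 tested of 20) had 5 higher and 0 lower at an unadjusted p under 0.05, 27.8% in all, with a median of 0.10. The carbonyl reductase CBR1 was at 6.64 ± 0.64 and 10.4 ± 0.89 CPM (log2 fold change 0.64 ± 0.13, adjusted p 0.0684, with the block 0.00287). The aldo-keto reductase AKR1C2, whose reads may be divided with its near-identical relatives, was at 32.5 ± 2.86 and 41.9 ± 2.12 CPM (0.36 ± 0.08, 0.0691, with the block 0.00455). Of 14 partners and regulators of NRF2, 2 were higher and 1 lower, 21.4% in all. SQSTM1, an autophagy receptor that binds KEAP1, was at 174.1 ± 7.17 and 209.1 ± 16.2 CPM (0.26 ± 0.06, 0.0734, with the block 0.00859). MAFF, a small MAF protein that pairs with NRF2 on DNA, was at 11.98 ± 1.33 and 16.8 ± 2.49 CPM (0.49 ± 0.13, 0.0798, with the block 0.00343). DPP3, which competes with NRF2 for KEAP1, had a log2 fold change of -0.21 ± 0.09 (0.193) and passed in neither fit.

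Glutathione is made in 2 steps, by the ligase of GCLC and GCLM and then by GSS, and is recycled by GSR. The catalytic subunit GCLC and the modifier GCLM lay on opposite sides of 0. GCLM (2730, chromosome 1: 93885199-93909430) stood at 36.0, 38.2 and 35.3 CPM in the vehicle libraries and at 30.0, 34.6 and 28.5 CPM in the Aβ42 ones. Every Aβ42 library was below every vehicle library, Aβ42 replicate 2 by the least. The log2 fold change was -0.23 ± 0.08, or 0.851-fold, with an adjusted p of 0.127 without and 0.0335 with the block, and it passed in 5 of 20 alternatives. GCLC was at 36.2 to 38.2 CPM in the vehicle libraries and 37.7 to 40.4 CPM in the Aβ42 ones (0.06 ± 0.06, adjusted p 0.543).

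The other glutathione members had overlapping groups. GSS (-0.05 ± 0.06), GSR (0.02 ± 0.05), the transferase GSTP1 (-0.05 ± 0.10) and the cytosolic peroxidase GPX1 (-0.05 ± 0.10) had adjusted p values of 0.67 to 0.872. GPX4 (2879), the peroxidase that reduces lipid peroxides in membranes, stood at 65.4, 58.5 and 51.1 CPM in the vehicle libraries and at 58.9, 60.0 and 65.8 CPM in the Aβ42 ones. Vehicle replicate 1 was as high as the highest Aβ42 library, and the log2 fold change was 0.08 ± 0.09, with the other sign on TPM scales (-0.0017) and without vehicle replicate 3 (-0.0081). Among 29 further glutathione genes tested, 5 were higher and 1 lower at an unadjusted p under 0.05, 20.7% in all, with a median of 0.05. GPX3, the secreted peroxidase, was at 6.91 ± 1.48 and 12.7 ± 2.57 CPM (0.88 ± 0.19, adjusted p 0.0731, with the block 0.000268). SLC3A2, the heavy chain of the cystine transporter, was at 137.9 ± 8.03 and 161.2 ± 9.59 CPM (0.22 ± 0.06, 0.0826, with the block 0.00796). GSTK1, a mitochondrial and peroxisomal transferase, was at 9.80 ± 1.39 and 7.48 ± 1.78 CPM (-0.39 ± 0.17, 0.206, with the block 0.0478), with overlapping groups.

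Thioredoxin TXN reduces protein disulphides, TXNRD1 recharges it, and SRXN1 repairs overoxidised peroxiredoxins. TXNRD1 (7296) stood at 381.1, 441.2 and 394.4 CPM in the vehicle libraries and at 360.1, 422.2 and 389.0 CPM in the Aβ42 ones. Replicate 2 was the highest of each group, and the log2 fold change was -0.05 ± 0.07. TXN was at 42.3 to 50.5 and 42.8 to 47.7 CPM (-0.01 ± 0.08). SRXN1 was at 62.1, 68.2 and 56.2 CPM and at 65.6, 71.0 and 71.6 CPM (0.16 ± 0.07), with an unadjusted p of 0.0523 and an adjusted p of 0.213, and 0.112 with the block.

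The 6 peroxiredoxins, the bulk peroxide scavengers of the cytosol, mitochondria and endoplasmic reticulum, had log2 fold changes between -0.15 and 0.05 with standard errors of 0.05 to 0.08, and 0 of 6 passed with or without the block. PRDX1, the most abundant, stood at 203.9, 235.9 and 215.9 CPM in the vehicle libraries and at 192.7, 215.6 and 202.0 CPM in the Aβ42 ones (-0.10 ± 0.06). PRDX2 stood at 102.3, 103.3 and 92.3 CPM and at 77.6, 98.1 and 93.5 CPM (-0.15 ± 0.08). In both genes the groups overlapped through the Aβ42 library numbered 2 and, for PRDX2, also through that numbered 3. In 1 of 20 alternatives, the block with the length offset, PRDX1 (adjusted p 0.0449) and PRDX2 (0.0436) passed. The log2 fold change of PRDX1 was -0.045 without vehicle replicate 2, and that of PRDX2 was -0.051 without Aβ42 replicate 1. PRDX3 in mitochondria (-0.05), PRDX4 in the endoplasmic reticulum (0.05), PRDX5 (-0.02) and PRDX6 (-0.01) had adjusted p values of 0.617 to 0.917. Of 19 further thioredoxin and redox repair genes tested, 4 were higher and 2 lower at an unadjusted p under 0.05, 31.6% in all, with a median of 0.04. OXR1, an oxidation resistance factor, was at 74.8 ± 3.77 and 89.4 ± 5.82 CPM (0.26 ± 0.06, adjusted p 0.0734, with the block 0.00536). SESN2, a stress-induced sestrin, was at 45.7 ± 5.89 and 59.8 ± 6.5 CPM (0.39 ± 0.10, 0.0882, with the block 0.00131). NXN, a thioredoxin relative, was at 49.8 ± 2.05 and 41.3 ± 5.01 CPM (-0.27 ± 0.08, 0.108, with the block 0.0142). TXNDC17 was at 13.2 ± 0.73 and 10.5 ± 1.15 CPM (-0.32 ± 0.11, 0.121, with the block 0.0468).

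Superoxide is converted to peroxide by SOD1 in the cytosol and SOD2 in mitochondria, and catalase breaks peroxide down in peroxisomes. SOD1 was at 90.7 to 94.2 and 89.3 to 99.6 CPM (log2 fold change 0.02 ± 0.05), and SOD2 at 377.8 to 437.1 and 385.1 to 424.0 CPM (-0.04 ± 0.06). CAT (847) stood at 6.61, 7.36 and 5.49 CPM in the vehicle libraries and at 8.59, 7.36 and 8.94 CPM in the Aβ42 ones. Aβ42 replicate 2 and vehicle replicate 2 were almost equal, and the other Aβ42 libraries were clearly higher. The log2 fold change was 0.36 ± 0.14 (adjusted p 0.171, with the block 0.109), and without Aβ42 replicate 2 it was 0.43 (0.0471).

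AIFM2, a reductase that protects membranes from lipid peroxides beside GPX4, was at 5.95 to 6.75 CPM in the vehicle libraries and 4.86 to 6.12 CPM in the Aβ42 ones (-0.19 ± 0.15). ACSL4, which loads membranes with oxidisable fatty acids, was at 139.7 to 162.0 and 137.2 to 152.4 CPM (-0.04 ± 0.06). Of 19 further ferroptosis genes tested, 4 were higher and 1 lower at an unadjusted p under 0.05, 26.3% in all, with a median of 0.13. SAT1, a polyamine-degrading enzyme, was at 125.2 ± 0.63 and 154.7 ± 11.4 CPM (0.30 ± 0.06, adjusted p 0.0684, with the block 0.00183). MBOAT1, a phospholipid acyltransferase, was at 4.49 ± 0.12 and 6.73 ± 0.40 CPM (0.58 ± 0.14, 0.0734, with the block 0.0141). CISD2, an iron-sulphur protein of the endoplasmic reticulum, had a log2 fold change of -0.20 ± 0.07 (0.144) and passed in neither fit.

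**Figure D5:**
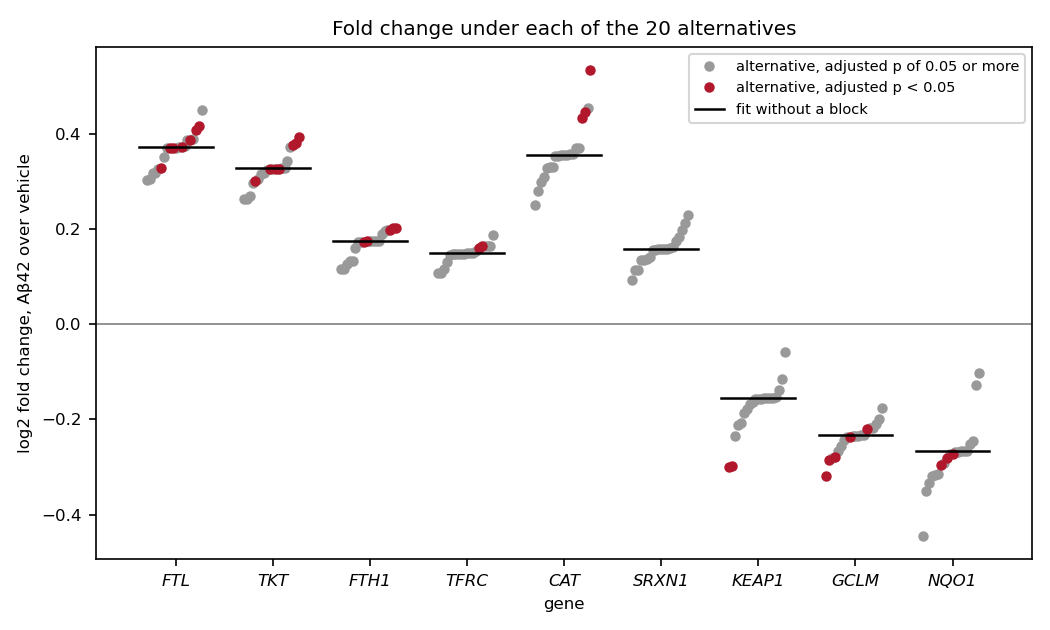
For 9 genes, each point is the log2 fold change under 1 of the 20 alternatives (sorted within the gene), red where the adjusted p is under 0.05, and the line is the fit without a block. For each of these 9 genes all points lie on 1 side of 0, and FTL and TKT have the most red points (7 each). The 20 members that took the other sign in some alternative are not among the genes shown.

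Many members shared an order of libraries within the groups. For 16 of the 38 members (42.1%) the library numbered 2 was the highest of its group in both vehicle and Aβ42, against 18.5% of all genes tested, and for 1 member (2.63%) it was the lowest in both, against 18.2%. The 16 were KEAP1, NQO1, GCLM, GSS, GSTP1, TXN, TXNRD1, PRDX1, PRDX2, PRDX3, PRDX4, SOD1, PGD, TALDO1, SLC40A1 and AIFM2. This count was made after the values were seen and is a description of 2 libraries. The summed choroid plexus, proliferation, intermediate progenitor, astrocyte and endothelial and mesenchymal markers were also highest in the library numbered 2 of both groups. The other cell type lists were not, and the part of any of these lists was not tested. FTL, FTH1, TFRC and TKT were not among the 16.

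Promoters were examined because GCLM and ME1, both lower in all 3 Aβ42 libraries, are NRF2 targets. In RefSeq promoter windows (GRCh38.p14, 250 bases before to 50 after the start), the core of the antioxidant response element, TGACNNNGC on either strand, was present for 6 of 31 members with a window and for 14.4% of 14158 genes. The letters TGACTCA within some matches are also an AP-1 motif. Capitals mark the match, and each stretch is written in the gene's direction, so that a match on the opposite strand reads as the reverse complement.
GCLM, 34 bases before the start: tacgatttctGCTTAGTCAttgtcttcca
ME1, 137 bases before the start: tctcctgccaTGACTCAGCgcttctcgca
GSTP1, 66 bases before the start: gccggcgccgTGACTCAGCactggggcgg
TXNRD1, 99 bases before the start: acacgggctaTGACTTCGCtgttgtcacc
AIFM2, 22 bases before the start: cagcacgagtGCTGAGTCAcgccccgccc
PGD, 201 bases before the start: cctcgccgggGCAATGTCAtctaggtgct
A second match on the opposite strand lay 8 bases before the start in TXNRD1 and 11 bases after it in ME1. Of the 6 members with a match, GCLM and ME1 were the reason for the search, and GSTP1, TXNRD1, AIFM2 and PGD had overlapping groups. FTL, TKT and NQO1 had no match in this window, and sequence outside it was not searched. FTH1 and HMOX1 were among the members without a window.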

How the data were processed

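The authors deposited 1 table with an estimated read count and a TPM value (scaled by the authors for gene length and library total) for every gene in each library. The first is a read count per the file headers, but 86.9% to 87.5% of values in a library were whole, so they were treated as estimated counts and rounded. Per the submitters' processing notes, FastQC, STAR 2.7.11b, featureCounts 2.0.6 and GRCh38 were used, with no role or order stated. The annotation and strand setting are not given in the sources used here.

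Genes were kept by filterByExpr, scaled by TMM and tested with edgeR 4.0.16 (quasi-likelihood, robust, two-sided, no block) in R 4.3.3, with Benjamini-Hochberg adjustment over 13842 genes. CPM are TMM-normalised; sums over marker lists are CPM of library totals. A standard error is the log2 fold change over the square root of F. DESeq2 1.42.0 and limma 3.58.1 served as alternatives. The edgeR fits without a block, with the replicate block and with the length offset were run on simulated data. The other alternatives were not.

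Deviations from group means over 12186 genes correlated at 0.181, 0.388 and 0.129 for replicates 1, 2 and 3 across the groups. All exceed 0.1, so libraries sharing a number were treated as pairs, on the data alone, since the labels give no pairing. Deviations from a group mean cancel within the group, so the values for replicates 1 and 3 depend on that for replicate 2. They are not separate evidence of pairs, and the fits with the block rest on this rule. Replicates 1 and 3 correlated equally across numbers (0.177 and 0.154), so these numbers could be exchanged. The chi-square statistic of counts per gene was 3.16 to 21.1 over pairs of libraries, so no pair agreed within sampling noise.

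The members, lists and tests were chosen with earlier results of these data known. Values per library are given for NFE2L2, KEAP1, HMOX1, NQO1, GCLM, TXNRD1, GPX4, FTH1, FTL and TFRC and for members with an unadjusted p under 0.05. SRXN1, PRDX1 and PRDX2 were added after their values were seen. From each other list at most 2 genes per direction are named, by smallest p.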

Additional observations from a re-analysis of the deposited data

How the results depend on the processing

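The counts of called genes depended on the fit. Against 0 of all genes and 0 members without a block, 1962 genes and 5 members passed with the replicate block, 2019 and 7 with the replicate block and length offset, 804 and 3 by DESeq2, 2457 and 7 with quality weights, and 360 and 2 with no filter on low counts. Leaving out 1 library gave 0 to 3224 genes and 0 to 7 members, with calls only without Aβ42 replicate 2. Leaving out both libraries numbered 2, an alternative chosen after seeing the data, gave 2316 genes and 8 members. The 7 members at an unadjusted p under 0.05 became 13 with the replicate block and length offset. When 1 library was left out they became 4 (without Aβ42 replicate 3) to 12 (without Aβ42 replicate 2). The cause of these differences was not tested. At that threshold the share of all genes was counted only in the fit without a block (23.9%, against 18.4% of members). The other counts therefore have no share of all genes to be read against. The median over the members, -0.023, moved by less than the spread of replicates (0.0652), but was -0.076 on log2(TPM + 1) and -0.077 on log2(TPM + 0.1), and was above 0 without vehicle replicate 2 (0.0088) and without Aβ42 replicate 1 (0.0043). The median of all genes moved by less than 0.1 under every scaling.

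Log2 fold changes of 20 members took the other sign in 55 of their alternatives, 0 of these with an adjusted p under 0.05, and the cause was not tested. On log2(TPM + 1) the value was -0.0081 for NFE2L2, -0.029 for GSR, -0.0017 for GPX4, -0.017 for PRDX4, -0.0501 for SOD1 and -0.021 for ACO1. On log2(TPM + 0.1) the value was -0.0082 for NFE2L2, -0.029 for GSR, -0.0017 for GPX4, -0.017 for PRDX4, -0.0502 for SOD1 and -0.022 for ACO1. With upper-quartile scaling the value was 0.0083 for TXN, 0.0046 for PRDX6, 0.0066 for SLC11A2 and 0.0046 for IREB2. With quality weights the value was -0.0044 for SOD1. With the length offset the value was -0.027 for SOD1, 0.014 for SOD2 and 0.0195 for IREB2. With the replicate block and length offset the value was -0.028 for SOD1, 0.015 for SOD2 and 0.0202 for IREB2. Without both libraries numbered 2 the value was 0.033 for TXN, 0.011 for PRDX5, -0.014 for SOD1, 0.0064 for PGD, 0.026 for SLC11A2 and 0.065 for ACSL4. Leaving out 1 library gave a range of -0.243 to 0.137 for HMOX1, -0.019 to 0.045 for GSR, -0.177 to 0.038 for GSTP1, -0.115 to 0.067 for GPX1, -0.0081 to 0.169 for GPX4, -0.066 to 0.061 for TXN, -0.115 to 0.0098 for TXNRD1, -0.063 to 0.033 for PRDX5 and -0.026 to 0.0064 for PRDX6. It gave -0.029 to 0.052 for SOD1, -0.076 to 0.043 for PGD, -0.049 to 0.0021 for NCOA4, -0.167 to 0.0082 for SLC40A1, -0.061 to 0.025 for SLC11A2, -0.035 to 0.026 for IREB2, -0.0095 to 0.086 for ACO1 and -0.079 to 0.031 for ACSL4.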

Other observations

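Oxidant-producing enzymes were mostly too scarce to test: 4 of 14 listed genes passed the filter, 1 of them higher and 0 lower at an unadjusted p under 0.05 (25.0%, against 23.9% of all genes). MAOA, the monoamine oxidase of the outer mitochondrial membrane, was at 26.3 ± 2.33 CPM in the vehicle libraries and 33.9 ± 1.07 CPM in the Aβ42 ones (mean ± SD, n = 3), a log2 fold change of 0.36 ± 0.08 with an adjusted p of 0.0691 in edgeR's test and 0.00422 with the replicate block. Of 11 genes of the integrated stress response, which shares SESN2 with the redox repair list, 5 were higher and 0 lower (45.5%, against 23.9% of all genes, 12.4% higher), with a median of 0.22. DDIT3, a transcription factor induced by that response, was at 21.7 ± 2.57 and 32.2 ± 5.49 CPM (0.57 ± 0.13, 0.0734, with the block 0.000447). ATF3, which had the smallest p of that list, was at 29.09 ± 2.31 and 37.55 ± 2.27 CPM (0.37 ± 0.08, 0.0691, with the block 0.00353).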
